A study of Mus musculus with 6 samples.

Results

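The genes described here mark the mesenchymal cells of the liver, namely stellate cells and the fibroblasts of the portal tract. They are Acta2, Tagln, Des, Reln, Pdgfra, Pdgfrb, Lox, Eln, Thy1 and Dcn, chosen by symbol, and all 10 were found among the 24489 gene entries of the deposited table. RNA-seq libraries were made from polyadenylated RNA of one lobe of the liver of untreated mouse pups at postnatal day 10, on a C3H/C57bl6J strain background. The libraries comprised 3 of the genotype Jag1+/+ and 3 of Jag1Ndr/Ndr, homozygous for the Nodder (Ndr) missense allele of the Notch ligand Jag1. The allele is carried by every cell, so a difference cannot be assigned to the cell type in which Jag1 acts, and such mice model Alagille syndrome, a disease with few bile ducts. The labels do not say that each library is a separate animal, so the tests measure the spread between these libraries, part of which may be technical.

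Stellate cells lie between hepatocytes and the sinusoid. In the quiescent state they store retinoid droplets and express the intermediate filament desmin (Des) and the secreted glycoprotein reelin (Reln). When activated they come to resemble myofibroblasts, take up smooth muscle genes such as Acta2 and Tagln, proliferate in response to platelet-derived growth factor (PDGF) and lay down matrix. Portal fibroblasts surround the bile ducts, make elastin (Eln) and carry the surface protein Thy1, and in cholestatic injury they too can become myofibroblasts. In bulk tissue, fewer cells of a type and less RNA per cell cannot be told apart.

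Of the 10 members, Reln was lower in Jag1Ndr/Ndr livers, and none was higher past the threshold. The other 9 did not pass (quasi-likelihood test of edgeR, p adjusted over all genes by Benjamini-Hochberg, threshold 0.05). Over the whole table, the share that passed was 7.63% of 13819 tested genes, 4.73% being higher and 2.90% lower. At an unadjusted p under 0.05, edgeR gave 5 of the 10 members, against 22.5% of all genes. At an adjusted p under 0.05, DESeq2 called 3 members higher and 1 lower, where it called 12.2% of all genes, 7.39% higher and 4.84% lower. The libraries of the genotypes lay apart for Des and Dcn (Jag1Ndr/Ndr above) and for Reln (Jag1Ndr/Ndr below), that is for 3 of 10 members against 29.0% of all genes. The median log2 ratio of Jag1Ndr/Ndr to Jag1+/+ was 0.56 over the members and 0.00 over all genes, with 8 members positive and 2 negative.

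**Figure D1:**
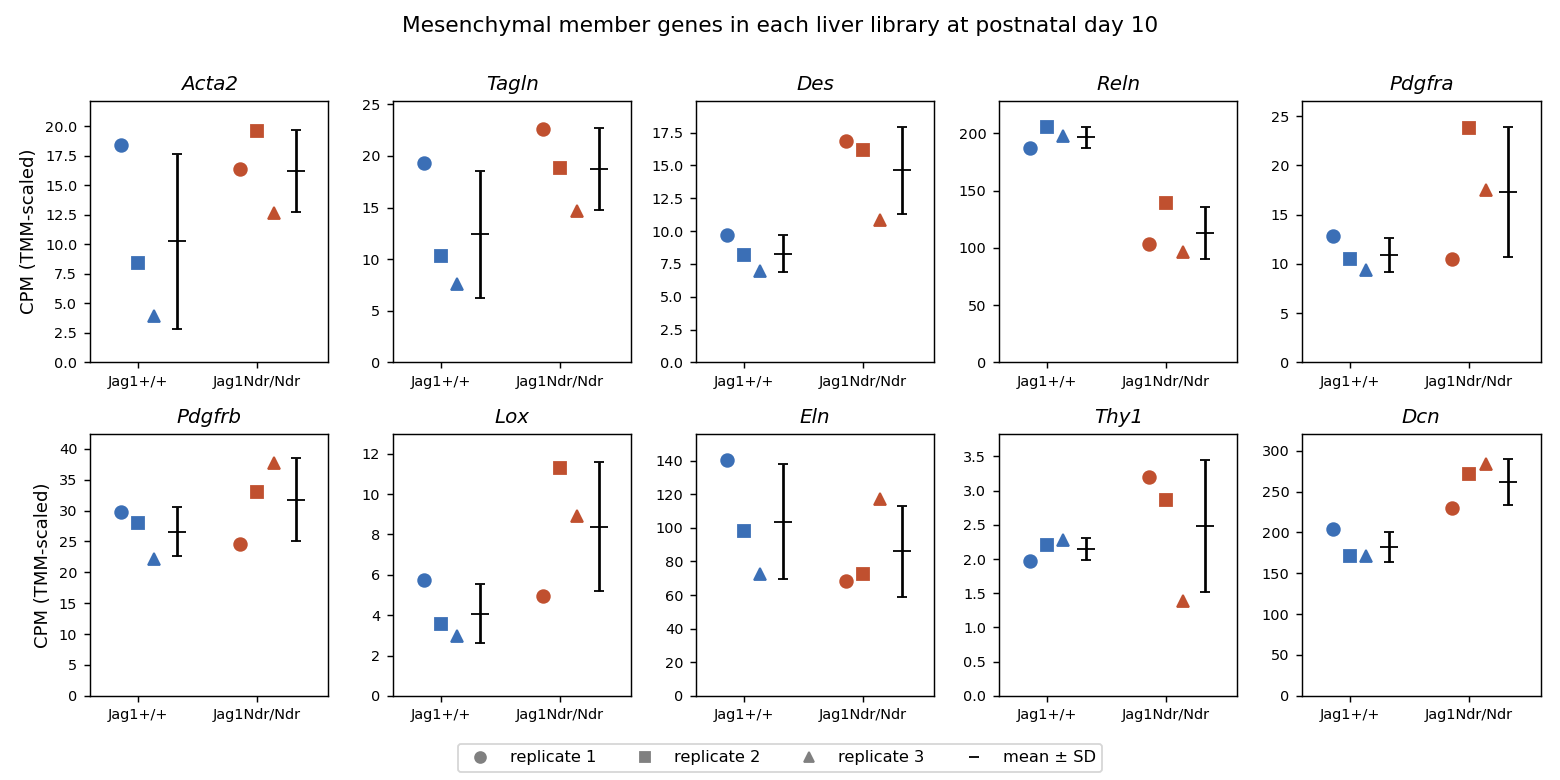
CPM (read counts scaled to library size by TMM, vertical axis from 0) of the 10 member genes in each library, by genotype; symbols give the replicate number and black bars the mean ± SD of 3 libraries. Reln lies lower in all 3 Jag1Ndr/Ndr libraries, Des and Dcn lie higher in all 3, and Acta2 and Tagln are spread widely among the Jag1+/+ libraries.

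Library depth ranged from 12992592 to 59653111 reads over genes, and 3 reads, the limit that a count of 0 allows, corresponded to between 0.0421 and 0.266 CPM. The deepest and the shallowest libraries were both Jag1Ndr/Ndr (replicates 2 and 1), and these lay farthest apart on the second principal component. Jag1 itself (log2 ratio -0.28 ± 0.28, SE; edgeR adjusted p = 0.638) does not check the genotype labels, because the allele alters the protein and not necessarily the amount of its transcript. Xist and Y-linked reads marked Jag1+/+ replicate 1 and Jag1Ndr/Ndr replicates 2 and 3 as female and the other 3 as male. Of the 1054 genes that passed, 62.0% were higher in Jag1Ndr/Ndr, against 74.3% with library totals in place of TMM and 78.5% and 79.3% in the deposited RPKM (these are reads scaled to gene length and library size; limma, pseudocounts 0.1 and 1). These scalings moved the median log2 ratio of all genes from 0.00 to 0.13, 0.22 and 0.18. The deposited RPKM had been multiplied by TMM factors, where edgeR divides by them, so they scale the libraries opposite to the main test.

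Reln encodes a large secreted glycoprotein that in the liver is made by stellate cells and lymphatic endothelium. The gene lies on chromosome 5 at positions 21884454 to 22344705 of GRCm38. It measured 187, 205 and 198 CPM in Jag1+/+ replicates 1, 2 and 3, and 103, 139 and 96.8 CPM in Jag1Ndr/Ndr replicates 1, 2 and 3. The Jag1+/+ libraries were close together and every Jag1Ndr/Ndr library lay below them, the deepest one least so. The mean fell 1.74-fold, from 197 ± 9.15 to 113 ± 22.7 CPM (mean ± SD, n = 3 each; log2 ratio -0.80 ± 0.18, edgeR adjusted p = 0.0361). The fitted value was lower in all 15 alternative settings, but passed in 6 of them. It did not pass without Jag1+/+ replicates 1, 2 and 3 (edgeR adjusted p = 0.101, 0.138 and 0.134), without Jag1Ndr/Ndr replicate 1 (0.0548) or replicate 3 (0.0849), with a term for sex (0.0809), with library totals (0.160) or in the deposited RPKM (limma, 0.624 and 0.626). In exons Reln shares 246 bases with the antisense gene Gm10475 in the GENCODE annotation, and without strand their reads cannot be told apart.

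The 250 bases before the Reln start (RefSeq, GRCm38.p6, minus strand, chr5:22344706-22344955) are shown because Reln is the member that passed, with CG dinucleotides in capitals:
Reln: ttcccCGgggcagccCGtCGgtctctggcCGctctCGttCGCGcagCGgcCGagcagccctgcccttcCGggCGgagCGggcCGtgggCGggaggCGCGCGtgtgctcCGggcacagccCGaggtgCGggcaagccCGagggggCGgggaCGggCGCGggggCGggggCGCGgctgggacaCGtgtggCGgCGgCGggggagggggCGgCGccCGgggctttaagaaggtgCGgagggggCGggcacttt
This stretch was 80.0% G or C and held 37 CG dinucleotides, against a median of 52.4% and 6 over 32851 windows of the same length before RefSeq starts. A search for TGGGAA on both strands, the core of the motif bound by the Notch effector RBPJ, found no match in it, which says only that these letters are not in this window. The table of windows held no entry for Tagln, Pdgfrb, Lox, Eln, Thy1 and Dcn.

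Des encodes desmin, the intermediate filament of muscle cells and of rodent stellate cells (chromosome 1, positions 75360292 to 75368579). It measured 9.73, 8.15 and 6.95 CPM in Jag1+/+ and 16.8, 16.2 and 10.8 CPM in Jag1Ndr/Ndr replicates 1, 2 and 3. All Jag1Ndr/Ndr libraries lay above all Jag1+/+ libraries, with Jag1Ndr/Ndr replicate 3 close to Jag1+/+ replicate 1. The means were 8.28 ± 1.39 and 14.6 ± 3.30 CPM, and the log2 ratio, 0.83 ± 0.23, did not reach the threshold (edgeR adjusted p = 0.0637). It passed by DESeq2 (adjusted p = 0.0171) and without Jag1Ndr/Ndr replicate 3 (edgeR adjusted p = 0.0383). Des shares 220 exon bases with the antisense gene Gm15179.

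As a ratio of reads within a library, which no library scaling affects, Des over Reln stood at 0.0520, 0.0397 and 0.0351 in Jag1+/+ replicates 1, 2 and 3. In Jag1Ndr/Ndr replicates 1, 2 and 3 it was 0.164, 0.117 and 0.112, so that the lowest Jag1Ndr/Ndr ratio lay above the highest Jag1+/+ ratio. Since Des lay higher and Reln lower in every Jag1Ndr/Ndr library, this separation had to follow. The ratio was chosen after the values of both genes had been seen and was not tested.

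Acta2 encodes smooth muscle alpha-actin, the usual marker of activated stellate cells and myofibroblasts (chromosome 19, positions 34240336 to 34255585). It measured 18.4, 8.44 and 3.90 CPM in Jag1+/+ and 16.4, 19.6 and 12.6 CPM in Jag1Ndr/Ndr replicates 1, 2 and 3. The genotypes overlapped because Jag1+/+ replicate 1 lay between the highest and the second Jag1Ndr/Ndr library, while Jag1+/+ replicates 2 and 3 were below all 3 of them. The spread within Jag1+/+, 4.72-fold from lowest to highest, exceeded that within Jag1Ndr/Ndr, 1.55-fold. The means were 10.3 ± 7.43 and 16.2 ± 3.48 CPM, with a log2 ratio of 0.69 ± 0.48 (edgeR adjusted p = 0.462). Without Jag1+/+ replicate 1 the log2 ratio was 1.40 and without Jag1+/+ replicate 3 it was 0.28, neither past the threshold (edgeR adjusted p = 0.103 and 0.831).

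Tagln encodes transgelin, an actin-binding protein of smooth muscle (chromosome 9, positions 45929628 to 45936058). It measured 19.3, 10.3 and 7.60 CPM in Jag1+/+ and 22.6, 18.8 and 14.7 CPM in Jag1Ndr/Ndr replicates 1, 2 and 3. As with Acta2, Jag1+/+ replicate 1 stood well above the other Jag1+/+ libraries and inside the Jag1Ndr/Ndr range. The log2 ratio was 0.60 ± 0.34 (edgeR adjusted p = 0.346), and 1.06 without Jag1+/+ replicate 1 (edgeR adjusted p = 0.0858). Tagln shares 1241 exon bases with the antisense gene Gm48529 and 108 with Pcsk7 on the opposite strand, so part of its count may belong to them. Per length, Acta2 over Tagln stood at 0.552, 0.476 and 0.298 in Jag1+/+ and at 0.421, 0.603 and 0.4996 in Jag1Ndr/Ndr replicates 1, 2 and 3, overlapping ranges.

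Smooth muscle genes are switched on by serum response factor, which binds the CArG box, a pair of C and a pair of G on either side of 6 bases of A or T. With 1 G or C allowed among the 6, the 250 bases before the listed Acta2 start held a distal and a proximal match, and 8.59% of windows before all RefSeq starts held at least 1. With none allowed the share was 1.47% and Acta2 had no match. The proximal match overlaps TGGGAA, which 21.6% of windows hold on either strand. The matches are shown because Acta2 and Tagln were spread alike over the libraries and because RBPJ would act downstream of Jag1, with CArG and TGGGAA letters in capitals (RefSeq, GRCm38.p6, minus strand, chr19:34255438-34255467 and chr19:34255388-34255417):
Acta2 distal: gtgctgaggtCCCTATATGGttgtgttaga
Acta2 proximal: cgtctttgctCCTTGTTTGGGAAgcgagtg
GENCODE places both stretches inside the first, untranslated exon of Acta2, whose start it lists farther upstream. The RefSeq gene span given above, which covers all transcripts, also begins upstream of the start used for the window. A match of letters is not evidence of binding. The windows of Des and Pdgfra held no CArG match with up to 1 G or C and no TGGGAA.

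Pdgfra encodes PDGF receptor alpha, a marker of fibroblasts and stellate cells (chromosome 5, positions 75151322 to 75198206). It measured 12.9, 10.5 and 9.41 CPM in Jag1+/+ and 10.6, 23.8 and 17.5 CPM in Jag1Ndr/Ndr replicates 1, 2 and 3. Jag1Ndr/Ndr replicate 1 lay within the Jag1+/+ range and the other two Jag1Ndr/Ndr libraries above it. The log2 ratio, 0.68 ± 0.29, did not reach the threshold (edgeR adjusted p = 0.205), but passed without Jag1Ndr/Ndr replicate 1 (0.92, edgeR adjusted p = 0.0369). Pdgfra shares exon bases with 2 transcripts on the opposite strand, 456 with Gm42802 and 166 with Gm42803, and 30 with the microRNA gene Mir7025.

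Pdgfrb encodes PDGF receptor beta, through which stellate cells receive their main proliferative signal (chromosome 18, positions 61045127 to 61085067). It measured 29.8, 27.95 and 22.1 CPM in Jag1+/+ and 24.6, 32.97 and 37.8 CPM in Jag1Ndr/Ndr replicates 1, 2 and 3. The ranges overlapped through Jag1Ndr/Ndr replicate 1, and the log2 ratio was 0.26 ± 0.20 (edgeR adjusted p = 0.507). Per length, Pdgfra stood at 0.312 to 0.360 of Pdgfrb in the Jag1+/+ libraries and in Jag1Ndr/Ndr at 0.359 (replicate 1), 0.602 (replicate 2) and 0.387 (replicate 3).

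Lox encodes lysyl oxidase, which cross-links collagen and elastin (chromosome 18, positions 52516060 to 52529867). It measured 5.73, 3.54 and 2.97 CPM in Jag1+/+ and 4.96, 11.3 and 8.91 CPM in Jag1Ndr/Ndr replicates 1, 2 and 3. Jag1Ndr/Ndr replicate 1 again lay inside the Jag1+/+ range. The log2 ratio of 1.07 ± 0.36, the largest among the members by value, did not pass (edgeR adjusted p = 0.114). It passed by DESeq2 (adjusted p = 0.0335) and without Jag1Ndr/Ndr replicate 1 (edgeR log2 ratio 1.32, adjusted p = 0.0444). Lox shares 30 exon bases with the antisense gene AC161119.1.

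Eln encodes elastin, the core of the elastic fibres of arteries and portal tracts (chromosome 5, positions 134702595 to 134747368). It measured 140, 97.8 and 72.6 CPM in Jag1+/+ and 68.3, 72.5 and 117 CPM in Jag1Ndr/Ndr replicates 1, 2 and 3. Both genotypes spanned nearly the same range, and the log2 ratio of -0.27 ± 0.29 (edgeR adjusted p = 0.666) turned to 0.011 without Jag1+/+ replicate 1. Per length, Lox over Eln stood at 0.0333, 0.0295 and 0.0334 in Jag1+/+ and at 0.0592, 0.127 and 0.0618 in Jag1Ndr/Ndr replicates 1, 2 and 3. The ratio of these transcripts was higher in each Jag1Ndr/Ndr library than in any Jag1+/+ library. It was not tested and was chosen after the values were seen, and neither gene passed alone. Eln shares 267 exon bases with the antisense gene Gm30003.

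Dcn encodes decorin, a small proteoglycan that binds collagen fibrils and TGF-beta (chromosome 10, positions 97479500 to 97518163). It measured 204, 171 and 172 CPM in Jag1+/+ and 230, 272 and 284 CPM in Jag1Ndr/Ndr replicates 1, 2 and 3. The genotypes lay apart, with a small spread in each (182 ± 18.7 and 262 ± 28.5 CPM). The log2 ratio of 0.52 ± 0.17 did not pass (edgeR adjusted p = 0.107), although DESeq2 called it (adjusted p = 0.0301).

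Thy1, a surface glycoprotein of portal fibroblasts and also of T cells (chromosome 9, positions 44043384 to 44048579), was the least counted member, with 26 to 204 reads per library. It measured 1.97, 2.21 and 2.27 CPM in Jag1+/+ and 3.19, 2.86 and 1.39 CPM in Jag1Ndr/Ndr replicates 1, 2 and 3, with Jag1Ndr/Ndr libraries both above and below all Jag1+/+ libraries. The log2 ratio was 0.20 ± 0.34 (edgeR adjusted p = 0.794). The summed level of 10 T cell markers ranged from 14.1 to 18.7 CPM in Jag1+/+ and from 12.2 to 21.3 CPM in Jag1Ndr/Ndr, where replicate 3 was lowest in both measures, and its part in Thy1 was not tested.

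**Figure D2:**
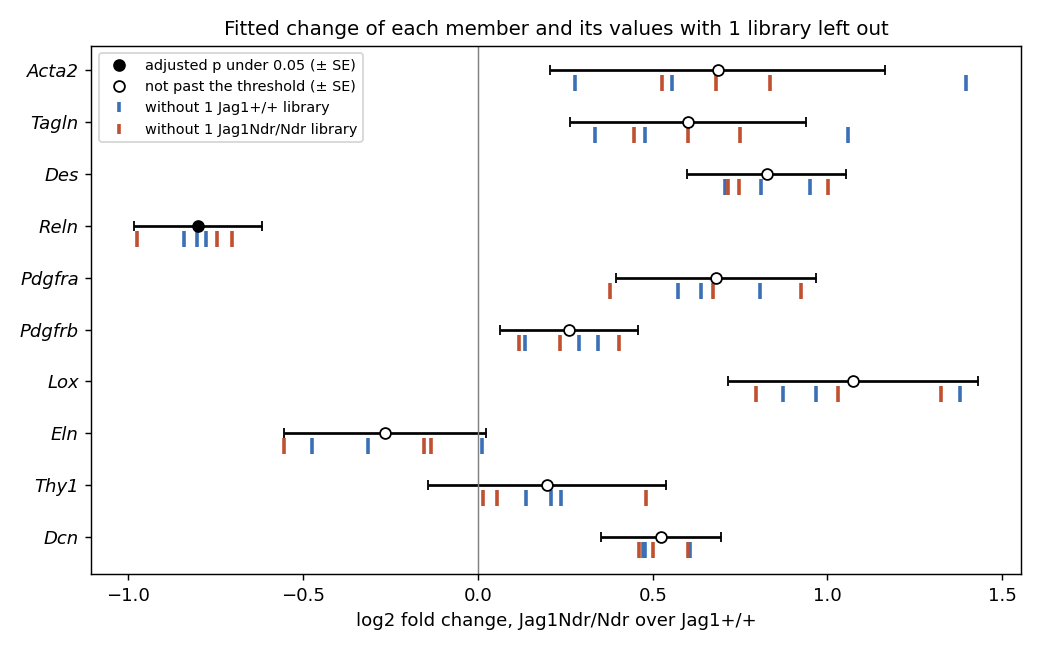
Log2 fold change ± SE of each member (horizontal axis, Jag1Ndr/Ndr over Jag1+/+; a filled circle marks an adjusted p under 0.05), with short bars below for the values after leaving out 1 library. Reln stays between -0.97 and -0.70, Acta2 ranges from 0.28 to 1.40, and Eln reaches 0.011.

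Levels per length place the members in an order within each genotype. In Jag1+/+ livers Dcn stood at 106 ± 10.9 RPKM (mean ± SD, n = 3), Eln at 28.1 ± 9.29, Reln at 17.3 ± 0.803, Tagln at 8.55 ± 4.24 and Pdgfrb at 5.05 ± 0.758. Acta2 followed at 4.09 ± 2.97, Des at 2.99 ± 0.503, Pdgfra at 1.73 ± 0.280, Thy1 at 1.27 ± 0.0949 and Lox at 0.903 ± 0.323. Tagln and Pdgfrb, Pdgfrb and Acta2, Acta2 and Des, and Thy1 and Lox overlapped between libraries, so their order is not settled by these values, while the other neighbours did not overlap. In Jag1Ndr/Ndr livers Dcn (153 ± 16.6) and Eln (23.4 ± 7.38) again led, followed by Tagln (12.9 ± 2.73) and Reln (9.91 ± 1.99), which had changed places and overlapped. Thy1 (1.47 ± 0.569) and Lox (1.85 ± 0.706) were last.

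The other genes of these cell types come from lists that were chosen with earlier results of these data known. Over all genes, edgeR called 7.63%, 22.5% had an unadjusted p under 0.05 and DESeq2 called 12.2%. The list counts here and below are to be read beside these shares. Of 24 quiescent stellate cell genes, all tested, 1 was higher and 3 were lower, with a median log2 ratio of -0.14. The log2 ratio was positive for 10 and negative for 14. At an unadjusted p under 0.05 edgeR gave 11 in either direction, and DESeq2 called 3 higher and 4 lower. Cxcl12, a chemokine of stellate and other stromal cells, fell from 546 ± 48.7 to 239 ± 44.3 CPM (log2 ratio -1.19 ± 0.20, edgeR adjusted p = 0.0121). Vipr1, a receptor of vasoactive intestinal peptide, fell 1.85-fold (edgeR adjusted p = 0.01998), Reln was the third, and Steap4, a metalloreductase that responds to inflammation, rose 2.49-fold (0.0197). Cxcl12 lost its call without Jag1+/+ replicate 2 or 3 and in the deposited RPKM. Vipr1 and Steap4 lost theirs without each of the 3 Jag1+/+ libraries and with the term for sex, and Vipr1 also in the deposited RPKM (largest adjusted p over all alternatives 0.166 for Cxcl12, 0.542 for Vipr1 and 0.0978 for Steap4). Lrat, which makes retinyl esters for storage, measured 29.4, 29.6 and 40.4 CPM in Jag1+/+ and 10.4, 28.3 and 19.4 CPM in Jag1Ndr/Ndr and did not pass (edgeR adjusted p = 0.213). Ngfr, a neurotrophin receptor of stellate cells, stood at 27.1 ± 0.508 and 9.64 ± 5.62 CPM (edgeR adjusted p = 0.0676). Ngfr passed by DESeq2, with no filter on low counts, and without Jag1Ndr/Ndr replicate 1 or 2. In the other direction, Gfap, a filament protein, and Des had log2 ratios of 1.55 and 0.83 (edgeR adjusted p = 0.0528 and 0.0637). Hand2 and Cygb had log2 ratios of 0.43 and 0.41 (edgeR adjusted p = 0.19 and 0.31), and none of these genes passed.

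Of 24 genes of activated stellate cells and myofibroblasts, 22 were tested, 4 were higher and none was lower (edgeR; 7 at an unadjusted p under 0.05), with a median of 0.56. DESeq2 called 5 higher and 0 lower. Timp1, an inhibitor of matrix metalloproteinases, rose from 0.757 ± 0.456 to 14.5 ± 5.95 CPM (log2 ratio 4.35 ± 0.48, edgeR adjusted p = 0.00314). Timp1 passed in every alternative run. Tpm1, a tropomyosin, and Vim, the intermediate filament vimentin, rose 1.70-fold and 1.88-fold (edgeR adjusted p = 0.0297 and 0.0298). Both lost their calls without each Jag1+/+ library, without Jag1Ndr/Ndr replicate 2, with the term for sex and in the deposited RPKM, and Tpm1 also with library totals. Hepatocytes, endothelium and leukocytes can also make these transcripts. The collagen gene Col1a1 measured 85.7, 60.95 and 49.4 CPM in Jag1+/+ and 86.95, 92.8 and 124 CPM in Jag1Ndr/Ndr, and did not pass (edgeR adjusted p = 0.152). The other collagen genes of this list, Col1a2, Col3a1 and Col5a1, had negative log2 ratios (-0.03, -0.31 and -0.28). None of them passed (edgeR adjusted p = 0.95, 0.62 and 0.38).

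In the portal fibroblast list 20 of 21 genes were tested, and Pi16, a marker of adventitial fibroblasts, was the single one past the threshold. It rose from 1.72 ± 0.149 to 5.67 ± 1.49 CPM (log2 ratio 1.73 ± 0.27, edgeR adjusted p = 0.0106), and did not pass without Jag1+/+ replicate 1 or 2 (largest adjusted p 0.0554). At an unadjusted p under 0.05 edgeR gave 7 of the 20, against 22.5% of all genes. DESeq2 called 3 higher and 1 lower, where it called 12.2% of all genes. The list's median was 0.23. Among 19 tested genes of elastic fibre assembly, the glycoprotein Emilin2 rose from 6.75 ± 1.17 to 23.1 ± 6.32 CPM (edgeR adjusted p = 0.00633), passing in every alternative run. Ltbp4, which tethers latent TGF-beta and helps to lay down elastin, fell 1.75-fold (edgeR adjusted p = 0.0377). Ltbp4 lost its call without any 1 of the 6 libraries, with library totals and in the deposited RPKM. Neither Lox nor Eln was among the called genes of that list, whose median was 0.05.

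Among the 7 PDGF ligands and receptors, the ligand Pdgfa was the single one past the threshold, at 2.84, 2.63 and 2.58 CPM in Jag1+/+ and 7.98, 4.81 and 10.7 CPM in Jag1Ndr/Ndr replicates 1, 2 and 3 (log2 ratio 1.53 ± 0.31, edgeR adjusted p = 0.0243). Its call was lost without each Jag1+/+ library, without Jag1Ndr/Ndr replicate 3 and with the term for sex (largest adjusted p 0.103). Pdgfb, the ligand of Pdgfrb, stood at a log2 ratio of 0.56 ± 0.38, short of the threshold (edgeR adjusted p = 0.447). Ligand and receptor transcripts did not share an order of libraries, since Pdgfa was lowest of the Jag1Ndr/Ndr libraries in replicate 2, where Pdgfra was highest.

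Of 8 tested small leucine-rich proteoglycans, the family of Dcn, podocan (Podn) fell from 12.04 ± 1.85 to 4.89 ± 0.435 CPM (log2 ratio -1.31 ± 0.20, edgeR adjusted p = 0.00948) and none was higher (edgeR; 3 at an unadjusted p under 0.05 in either direction, and 1 higher by DESeq2, Dcn). Podn lost its call without Jag1+/+ replicate 3 and in the deposited RPKM. Of the 5 genes of reelin signalling, Dab1, the adaptor that docks to reelin receptors, rose from 1.98 ± 0.568 to 14.5 ± 5.29 CPM (log2 ratio 2.85 ± 0.35, edgeR adjusted p = 0.00424) and passed in every alternative run. Dab1 measured 15.6, 8.74 and 19.2 CPM in the 3 Jag1Ndr/Ndr libraries, where replicate 2 was lowest for Dab1 and highest for Reln. No Jag1+/+ library exceeded 2.63 CPM for Dab1. The reelin receptor Lrp8 stood at 0.526 ± 0.110 and 1.61 ± 0.959 CPM (edgeR adjusted p = 0.0694; past the threshold by DESeq2) and the receptor Vldlr had a log2 ratio of -0.20 ± 0.30. Of 8 tested genes of serum response factor and its partners, Csrp1, a LIM protein of smooth muscle, rose 1.61-fold (edgeR adjusted p = 0.0364). Csrp1 lost its call without any 1 of the 6 libraries, with the term for sex and in the deposited RPKM. Srf had a log2 ratio of 0.38 ± 0.19 (edgeR adjusted p = 0.297).

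**Figure D3:**
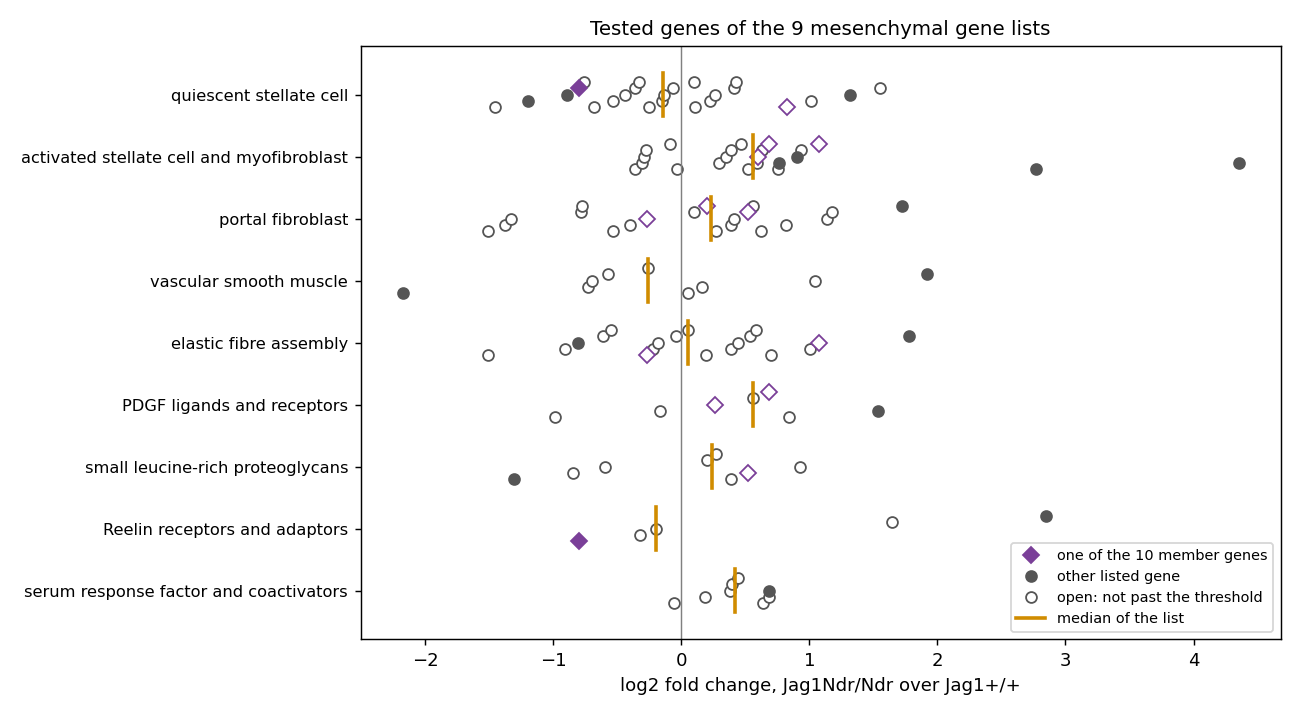
Log2 fold changes (horizontal axis) of the tested genes in 9 mesenchymal gene lists; diamonds are the 10 members, circles other listed genes, filled symbols those past the threshold and bars the list medians. The activated list (16 positive, 6 negative) and the quiescent list (10 positive, 14 negative) both spread to both sides of 0. The called genes of the activated list lie to the right, with Timp1 at 4.35, and those of the quiescent list on both sides.

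Markers of other cells that can express the members were read beside them. The 7 mesothelial markers found in the table summed to 31.7, 14.6 and 7.002 CPM in Jag1+/+ and 32.7, 33.8 and 40.8 CPM in Jag1Ndr/Ndr replicates 1, 2 and 3, so that Jag1+/+ replicate 1 stood within reach of the Jag1Ndr/Ndr libraries as it did for Acta2 and Tagln. None of these markers passed (edgeR; smallest adjusted p 0.0577, for Wt1; 3 at an unadjusted p under 0.05, and 1 by DESeq2), and their part in the levels of Acta2, Tagln and Eln was not tested. Summed levels fell from Jag1+/+ replicate 1 through 2 to 3 for the vascular smooth muscle, portal fibroblast, elastic fibre and PDGF lists. The portal fibroblast, elastic fibre and PDGF lists hold members, so their sums partly repeat the members' own values. Eln, at 140, 97.8 and 72.6 CPM, is in both the portal fibroblast and the elastic fibre list. In the vascular smooth muscle list, Pcp4l1 alone made up 180, 83.6 and 67.2 CPM of sums of 330, 241 and 213 CPM. The sums of the quiescent, activated, proteoglycan, reelin and serum response factor lists did not fall in that order. Most of the activated sum (4668, 4921 and 4743 CPM in Jag1+/+ replicates 1, 2 and 3) was Fn1, the fibronectin gene. Fn1 alone measured 2781, 3256 and 3111 CPM, so that sum does not show the order of the other activated genes. Of 14 vascular smooth muscle genes 9 were tested. Mustn1 rose 3.79-fold and Pcp4l1 fell 4.52-fold (edgeR adjusted p = 0.0125 and 0.0230), and Mustn1 lost its call without Jag1+/+ replicate 2 and Pcp4l1 without Jag1+/+ replicates 1 and 2 or Jag1Ndr/Ndr replicate 1. The defining smooth muscle myosin Myh11 measured 2.32, 1.78 and 1.06 CPM in Jag1+/+ and 1.68, 0.954 and 0.907 CPM in Jag1Ndr/Ndr, and Cnn1 was at most 0.267 CPM in any library. Skeletal muscle, another source of Des, was close to absent: its 12 markers summed to 0.695 to 2.01 CPM in Jag1+/+ and 2.03 to 3.46 CPM in Jag1Ndr/Ndr, with Mb and Myh4 at 0 reads in every library. The 6 listed genes of lymphatic endothelium, another source of Reln, included Reln itself. Of the others, Ccl21a was at 0 reads and Pdpn and Mmrn1 were at or below 1.95 and 5.43 CPM, both with higher means in Jag1Ndr/Ndr. Flt4 and Prox1, which other endothelium and hepatocytes also express, stood higher, at 79.8 ± 9.99 and 71.4 ± 17.7 CPM in Jag1+/+ and at 62.8 ± 9.73 and 45.0 ± 24.7 CPM in Jag1Ndr/Ndr. Their means were lower in Jag1Ndr/Ndr, as that of Reln was, the libraries overlapped, and neither passed (edgeR adjusted p = 0.292 and 0.401). The part of this cell type in the level of Reln was not tested.

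The 8 endothelial markers summed to 559 to 617 CPM in Jag1+/+ and 551 to 598 CPM in Jag1Ndr/Ndr, and 1, Vwf, rose 2.44-fold (edgeR adjusted p = 0.00576). Vwf lost its call in the deposited RPKM. Macrophage markers summed to between 628 and 971 CPM and between 1070 and 1499 CPM, and 2 of 8, Cd68 and Lyz2, rose 1.84-fold and 2.77-fold (edgeR adjusted p = 0.0351 and 0.0107). Lyz2 lost its call without Jag1+/+ replicate 2 or 3, and Cd68 without any 1 library except Jag1Ndr/Ndr replicate 3. Cd68 also lost its call with the term for sex and in the deposited RPKM. Cholangiocyte markers summed to 95.4 to 138 CPM and 52.6 to 138 CPM, where Jag1Ndr/Ndr replicate 3, the highest of its genotype, was also the highest for Eln. Hepatocyte markers summed to between 220900 and 228200 CPM in Jag1+/+ and between 109200 and 190100 CPM in Jag1Ndr/Ndr, so that both genotypes showed the labelled tissue, and Ttr fell 2.59-fold (edgeR adjusted p = 0.0238; call lost without any 1 Jag1+/+ library or Jag1Ndr/Ndr replicate 3). In the lists with no gene past the threshold, the smallest edgeR adjusted p was 0.158 for T cells (Lat), 0.187 for cholangiocytes (Muc1) and 0.242 for skeletal muscle (Mylpf). The parts of these cell types in the members' values were not tested.

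**Figure D4:**
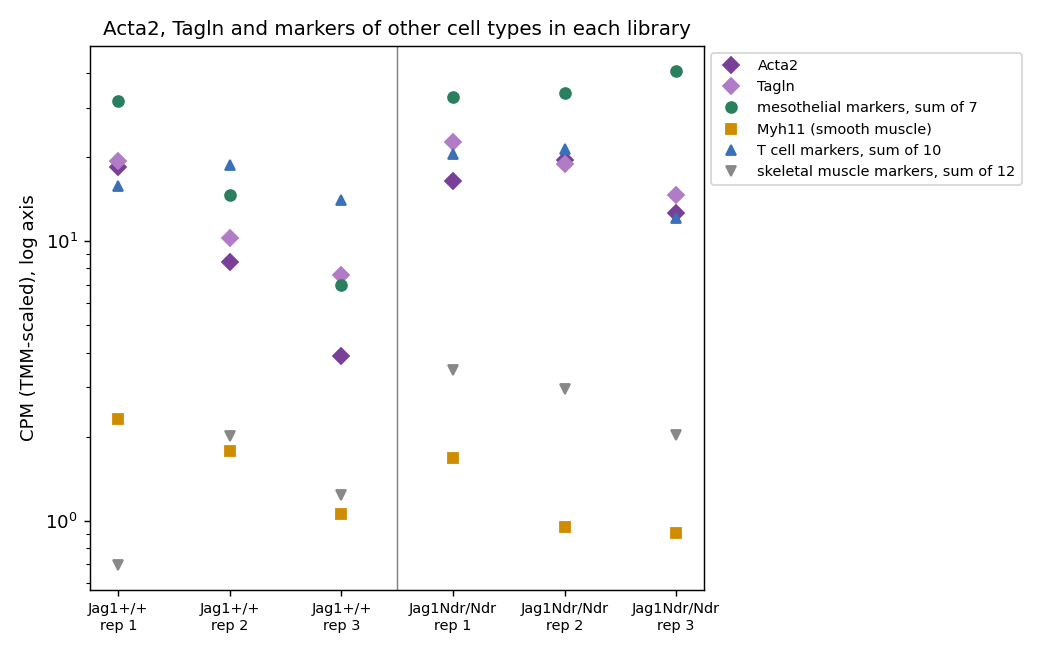
Level (CPM, TMM-scaled, log axis) of Acta2, Tagln and Myh11 and summed level of mesothelial, T cell and skeletal muscle markers in each of the 6 libraries (horizontal axis). Acta2, Tagln, Myh11 and the mesothelial sum are all highest of the Jag1+/+ libraries in replicate 1 and lowest in replicate 3, and the skeletal muscle sum stays at or below 3.46 CPM.

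The sexes were spread unevenly over the genotypes, and the members were compared by sex after their values had been seen. All 3 female libraries lay above all 3 male libraries for Pdgfra (12.9 to 23.8 against 9.41 to 10.6 CPM), Pdgfrb (29.8 to 37.8 against 22.1 to 27.95 CPM) and Lox (5.73 to 11.3 against 2.97 to 4.96 CPM), which held for 4.10% of all genes, while the opposite order held for 3.65% of all genes and for none of the members. With genotype as a term, none of the members passed for sex (edgeR adjusted p = 0.931 for Pdgfra, Pdgfrb and Lox), where 0.0362% of all genes did. Within males, 1 Jag1Ndr/Ndr library stood against 2 Jag1+/+ libraries, and within females 2 against 1, so that these values have no test. Acta2 was 2.66 times as high in the male Jag1Ndr/Ndr library as in the male Jag1+/+ mean, but the female Jag1Ndr/Ndr mean was 0.875 of the female Jag1+/+ library. Tagln went the same way, with ratios of 2.53 and 0.866, and Des stood at 2.23 and 1.39. Reln was lower in both sexes (0.511 and 0.630), and Dcn higher in both (1.34 and 1.36). Pdgfra stood at 1.06 in males and 1.61 in females, Pdgfrb at 0.981 and 1.19, and Lox at 1.53 and 1.76. With the term for sex, the log2 ratio of the genotypes was 0.39 for Pdgfra in place of 0.68, 0.11 for Pdgfrb in place of 0.26, and 0.72 for Lox in place of 1.07. It was -0.44 for Eln in place of -0.27 and 0.33 for Thy1 in place of 0.20, and none of these passed (edgeR adjusted p = 0.147 for Lox, the smallest of the 5).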

How the data were processed

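The authors deposited whole read counts per RefSeq gene entry, without normalization, per the file headers, and RPKM to which a TMM factor for each library, given in the header, had been applied by multiplication. For Jag1Ndr/Ndr replicates 1, 2 and 3 the header factors were 0.796, 1.28 and 1.10, and edgeR's TMM factors were 0.869, 1.195 and 1.07. Counts are divided by edgeR's factors, so the multiplication scaled these libraries in the opposite direction. STAR and mm10 are named in the submitters' processing notes; versions and the read counter are not given in the sources used here. The library kit does not mark strand.

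The member genes and the 17 other lists were chosen with earlier results of these data known. Besides 24489 gene entries, 93 spike-in and eGFP entries with 5 reads were left out. Of 195 listed genes 1 was matched through an older symbol (Adgre1, as Emr1), and Muc16 was not found. Counts of the 6 libraries were filtered with filterByExpr (13819 genes, all 10 members among them), scaled by TMM and fitted by genotype in edgeR (quasi-likelihood, two-sided, Benjamini-Hochberg over all genes, threshold 0.05). R 4.3.3 was used, with DESeq2 1.42.0, edgeR 4.0.16 and limma 3.58.1. A standard error is the size of the log2 ratio divided by the square root of F. CPM are TMM-scaled. Levels per length use the gene length implied by the deposited reads and RPKM, which differed by at most 2.82% between libraries for the members. Named genes are the members, Jag1, and up to 4 genes per list with the smallest adjusted p among those past the threshold, or the smallest where none passed. Lrat, Ngfr, Hand2, Cygb, Col1a1, Col1a2, Col3a1, Col5a1, Fn1, Pdgfb, Lrp8, Vldlr, Srf, Myh11, Cnn1, Mb, Myh4, Ccl21a, Pdpn, Mmrn1, Flt4 and Prox1 are named besides, with their values known. One gene that the rule names in the activated stellate cell list is counted there but not reported here. The comparison of the sexes was likewise added after the data had been seen.

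On simulated counts for 13819 genes, the test called 35 of 100 genes changed 2-fold, 89 of 100 changed 4-fold and 8 of 13619 unchanged ones. The simulation held 200 changed genes, fewer than the 1054 called in the data. The adjusted p depends on that number, so these shares need not hold for the data. Gene positions are RefSeq's spans over all transcripts on GRCm38, windows lie before 1 RefSeq start per gene, and exon overlaps are GENCODE M21's. The alternatives were RLE size factors, library totals, DESeq2, no filter or 1 CPM in 3 libraries, limma on log2 of the deposited RPKM with pseudocounts of 0.1 and 1, a replicate block, a covariate for sex (read from Xist and Y-linked reads), and leaving out each library.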

Additional observations from a re-analysis of the deposited data

How the results depend on the processing

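Among the members the direction held in all 15 alternatives run, except that Eln stood at a log2 ratio of 0.011 without Jag1+/+ replicate 1 (range -0.55 to 0.011 when leaving out 1 library). The number of members higher was 0, but 3 by DESeq2 (Des, Lox and Dcn) and 0 to 2 when leaving out 1 library. The number lower was 1 (Reln), but 0 with library totals without TMM, 0 and 0 in the deposited RPKM (pseudocounts 0.1 and 1), 0 with the covariate for sex, and 0 to 1 when leaving out 1 library. The number of genes changed in the whole table was 1054, but 1866 by DESeq2, 544 and 489 in the deposited RPKM with pseudocounts of 0.1 and 1, 596 with the covariate for sex, and 282 to 1211 when leaving out 1 library; fewer libraries leave fewer degrees of freedom, and otherwise the cause was not tested. Of 510 counts for the other lists under the alternatives, 392 stayed within 1.5 times the reported count, including counts that were 0 in both.

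With the replicate block 1 member was higher, Des (edgeR adjusted p = 0.0295), Reln stayed past the threshold (0.0276) and 1430 genes changed. Among the other genes named here, Ngfr, Gfap and Mmrn1 also gained a call with it. The sample descriptions of same-numbered libraries of both genotypes begin with the same number, but the labels do not say whether it marks a litter, a batch or a day. Same-numbered libraries deviated from their genotype means with correlations of 0.0856, 0.170 and 0.195, and each library correlated best with its own number, a hint from the data and not from the design, so the numbers were not taken as pairs.

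With 3 libraries per genotype, many 2-fold changes were missed in the simulated counts, which held fewer changed genes than were called in the data. A member that did not pass is not shown to be equal. Thy1, with 26 reads in its lowest library, is the member that depth limits most.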

Other observations

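The widest spread of Acta2, Tagln and Eln lay among the Jag1+/+ libraries. Jag1+/+ replicate 1 was the highest of its genotype for 8 of the 10 members, where this held for 36.5% of all tested genes, and Jag1+/+ replicate 3 was the lowest for 7 of the 10, against 34.2%. Acta2 had an SD of log2 CPM of 1.11 among Jag1+/+ libraries and 0.32 among Jag1Ndr/Ndr libraries, while the median over all tested genes was 0.17 and 0.32. As for that median, the SD was larger among Jag1Ndr/Ndr libraries for Des, Reln, Pdgfra, Pdgfrb, Lox, Thy1 and Dcn. Reln and Thy1, for example, had 0.07 and 0.11 among Jag1+/+ and 0.28 and 0.63 among Jag1Ndr/Ndr libraries. Jag1+/+ replicate 1 was female and the other two male, so that within Jag1+/+ the library and the sex cannot be told apart.

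Gfap, the filament protein used with desmin as a marker of rodent stellate cells, measured 0.753, 0.617 and 0.465 CPM in Jag1+/+ and 2.22, 2.06 and 1.01 CPM in Jag1Ndr/Ndr replicates 1, 2 and 3. The genotypes lay apart in the order that Des showed, and Gfap did not pass (log2 ratio 1.55 ± 0.40, edgeR adjusted p = 0.0528), although it passed by DESeq2, with no filter on low counts, and without Jag1Ndr/Ndr replicate 3. Gfap was chosen after its values were seen. Dcn over Reln, as a ratio of reads, stood at 1.09, 0.833 and 0.867 in Jag1+/+ and at 2.23, 1.96 and 2.93 in Jag1Ndr/Ndr replicates 1, 2 and 3. Dcn lay higher and Reln lower in every Jag1Ndr/Ndr library, so this ratio had to lie apart and adds nothing to their separate values. It was chosen after the values were seen and was not tested.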
